A study of Mus musculus with 2 samples.

Results

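TEC, a label of the GENCODE annotation for loci still awaiting experimental proof, is given where unspliced cDNA or EST sequences cluster but no gene model has been established. Most are drawn as a single exon, and manual annotators have used the label mainly for clusters with signs of a polyadenylated end, to mark places that could hold a gene. In nuclear RNA such loci are measured together with introns of unfinished transcripts, because an exon drawn inside an intron of another gene collects any read from the unspliced precursor of that gene. The loci described here are the TEC genes that carried RNA in the nucleus of stimulated mouse macrophages.

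The members were selected on measured values. Every transcript of the gene had to have the biotype TEC, and the RSEM expected count (reads assigned to the gene, with shared reads split by a model) had to be at least 10 in both libraries. Of 3213 TEC genes, 1031 (32.1%) met both conditions, and 1491 had 0 counts in both libraries, out of 55536 annotated genes in all. Their level is therefore a description and was not tested. Just inside the minimum lay Gm42566 with 10 and 10 counts in replicates 1 and 2, Gm47992 with 11 and 10, and Gm42686 with 11.4 and 10. Just outside it lay Gm37541 with 9 and 29, Gm10752 with 22 and 9, and Gm37689 with 22 and 9. The label "single-exon" held for 1022 members, whereas 9 had more than 1 exon.

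Total RNA depleted of ribosomal RNA was sequenced from the nucleoplasm (elsewhere the labels say nucleus) of primary macrophages grown from bone marrow of C57BL/6J mice. Both libraries belong to 1 group, which received 100 ng/ml of lipid A, the TLR4-activating part of endotoxin, for 12 h, was washed and rested for 12 h, and received 100 ng/ml again for 90 min. Age and sex were not collected per the labels, and no untreated group was analysed here, so no member can be called induced or repressed. Input RNA amounted to 1 µg in replicate 1 but 500 ng in replicate 2, both replicates have the same donor entry, and the spread between them may be technical. Gene counts summed to 29400127 and 17789556. All 9 macrophage markers were above 1 TPM (a level corrected for length and library size) in both libraries, summing to 1658 and 2291 TPM, while the sums of neutrophil, B cell, T and NK cell, erythroid and stromal markers stayed between 0 and 1.06 TPM, with all 4 T and NK cell markers at 0.

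The annotated 3′ ends are shown as examples of what was measured. The last 50 bases are printed first for members selected for AATAAA, the main polyadenylation signal, 10 to 30 bases before the end: the 5 of highest TPM among those outside the sense strand of other genes. Of the 303 members outside the sense strand, 46.2% have AATAAA or ATTAAA in the last 50 bases. Capitals mark the hexamer. Sequences are GENCODE M21 transcripts on GRCm38 (mm10), written 5′ to 3′.
2210406H18Rik, minus strand, chr7:121062852-121062901: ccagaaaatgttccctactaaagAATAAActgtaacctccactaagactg
Gm44207, plus strand, chr6:89346514-89346563: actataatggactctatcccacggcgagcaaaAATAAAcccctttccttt
AC167363.2, minus strand, chr17:29093416-29093465: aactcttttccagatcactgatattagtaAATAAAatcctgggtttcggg
Gm38091, minus strand, chr9:89259525-89259574: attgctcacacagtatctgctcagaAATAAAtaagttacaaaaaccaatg
1110025M09Rik, minus strand, chr15:81584174-81584223: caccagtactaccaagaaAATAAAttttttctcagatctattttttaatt

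The next ends were not selected on the signal, so the 2 sets are not a comparison. They belong to the 4 intronic members of highest TPM that have 1 transcript and 1 exon. AATAAA is present in Gm43197, and the ends of the other 3 hold neither AATAAA nor ATTAAA.
Gm43197, minus strand, chr6:3336772-3336821: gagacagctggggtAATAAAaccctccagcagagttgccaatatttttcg
Gm37666, plus strand, chr2:69014428-69014477: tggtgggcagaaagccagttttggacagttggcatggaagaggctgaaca
Gm37651, plus strand, chr2:68963661-68963710: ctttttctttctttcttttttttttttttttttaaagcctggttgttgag
A630081D01Rik, minus strand, chr1:80747222-80747271: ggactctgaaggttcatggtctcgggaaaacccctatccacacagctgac

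Most members lay inside other genes. Relative to all genes that are not TEC, 681 members (66.1%) lay wholly within introns on the same strand, and 47 (4.56%) overlapped an exon on the same strand. Another 192 (18.6%) overlapped a gene on the opposite strand alone, and 56 (5.43%) began within 10 kb after the end of a gene on the same strand. Head to head with a gene start, on the opposite strand and within 5 kb, were 24 members (2.33%, "divergent" in the plots), and 31 (3.01%) had no such neighbour (intergenic). Among the 2182 TEC genes below the minimum, 43.1% were intronic and 26.3% were intergenic in this sense, which does not exclude a nearby gene in another orientation. Read per position, 51.1% of exon-overlapping TEC genes (47 of 92) and 42.0% of intronic ones were members. The share was 35.5% for antisense, 24.9% for downstream, 18.6% for head-to-head and 5.12% for intergenic ones.

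The members were unevenly spread over the genome. Chromosome 5 held 158 of its 498 TEC genes as members and chromosome 1 held 157 of 475, whereas chromosome 11 had 1 member of only 15 TEC genes and chromosome X had 1 of 6. The number annotated therefore differed between chromosomes before any expression was considered. Members had a median length of 2223 bases (308 to 30942), and the other TEC genes 1757 bases. Counts grow with length, so length is not independent of the selection. Median GC content was 42.4% in members and 42.2% in the others.

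Levels were low for most members and high for a few. The median was 1.08 TPM in replicate 1 (quartiles 0.395 and 2.81, highest 59.6) and 2.25 TPM in replicate 2 (quartiles 0.825 and 5.55, highest 81.2), a mean of 1.67 ± 0.827 (SD, n = 2). For comparison, genes under the same minimum count had medians of 1.00 and 1.35 TPM for lincRNAs, 1.40 and 2.35 for genes annotated as sense_intronic, and 4.01 and 4.96 for protein_coding genes. At least 1 TPM in both libraries was reached by 542 members. Together the members took 1.00% of gene counts in replicate 1 and 1.66% in replicate 2 (1.33% ± 0.462, SD, n = 2). The 20 members of highest count held 27.2% and 24.6% of the members' counts. The rank of members was similar in the libraries (Spearman's rho of TPM 0.94 over 1031 loci, a description across loci that share libraries).

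**Figure D1:**
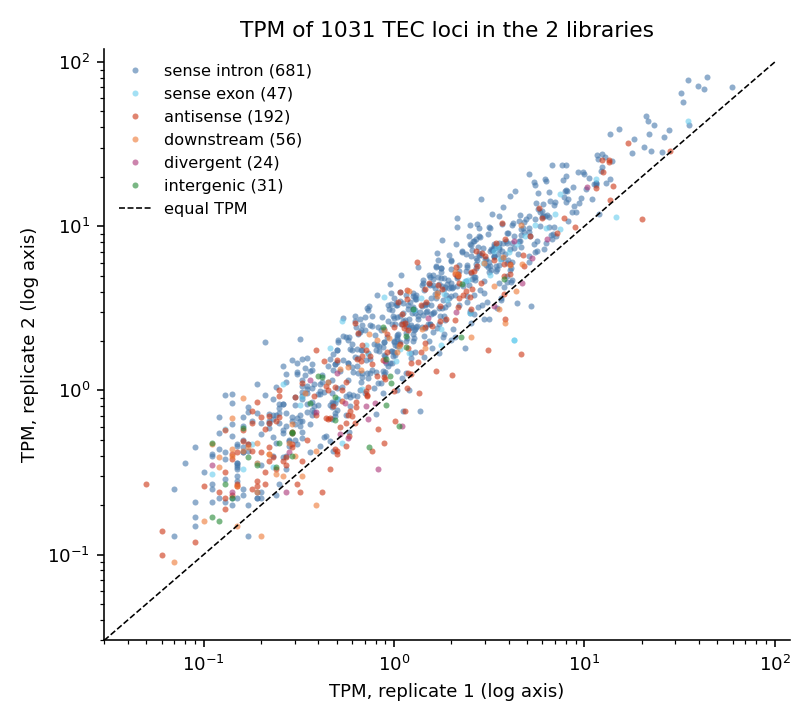
TPM of each of the 1031 TEC loci in replicate 1 (x axis, log scale) and replicate 2 (y axis, log scale), coloured by position, with the number of loci in brackets. The dashed line marks equal TPM, and 966 loci lie above it, with medians of 1.08 and 2.25 TPM. On this scale other genes were shifted too: the median log2 TPM ratio (pseudocount 0.1) was 0.35 over all 14043 genes under the same minimum and 0.92 over these loci. By TMM-scaled counts, introduced below, 879 of the loci were higher in replicate 2.

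Intronic loci held the highest levels. Gm43197 (chr6:3336772-3339354, minus strand) measured 59.6 and 70.9 TPM in replicates 1 and 2 and lies in an intron of Gm20559, a gene at 320.3 and 363 TPM. Gm37666 (chr2:69013612-69014477, plus strand) measured 44.2 and 81.2 TPM, and Gm37651 (chr2:68962217-68963710, plus strand) 34.9 and 77.5 TPM. Both lie in introns of Cers6, a ceramide synthase gene that stood at 153 and 148 TPM. In TPM replicate 2 was higher for these 3 loci and not for Cers6. By TMM-scaled counts, introduced below with the replicate ratio, Gm37666 and Gm37651 were also higher in replicate 2 (log2 ratios 0.52 and 0.80), while Gm43197 was lower there (-0.11, and -0.37 by kallisto counts).

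A pair of loci lay in introns of Dock10, which measured 132 and 155 TPM. A630081D01Rik (chr1:80747222-80749054) reached 39.3 and 71.3 TPM and Gm38062 (chr1:80728809-80730664) 42.3 and 68.2 TPM, both on the minus strand. Gm49125, in Ddhd1, a phospholipase gene, reached 32.2 and 64.6 TPM (chr14:45612772-45614066). Gm47445 (chr10:34178235-34179928), in the dermatan sulfate epimerase gene Dse, had 21.1 and 46.9 TPM. 9930017N22Rik (chr15:34126944-34130688), in Mtdh, had 21.7 and 43.9 TPM. In each of these 5 loci replicate 2 was higher.

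The highest count belonged to Gm37084 (chr1:131086252-131092149, minus strand, 5898 bases), with 9798 and 6066 reads, or 35.3 and 41.2 TPM. Its host is Mapkapk2, a kinase that acts after p38 in the inflammatory response, at 73.3 and 61.6 TPM. Gm37033 (4837 and 4618 counts) lay in Itpkb, an inositol phosphate kinase gene at 54.1 and 62.6 TPM. Gm48225 (3044 and 3332 counts, 12.8 and 26.4 TPM) lay in the gephyrin gene Gphn and was higher than its host, which had 6.39 and 4.89 TPM. These loci are long, so their counts rank above their TPM.

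Few members, 4 in all, lay in or near genes listed here for the lipid A response or for macrophage identity. Lists of 174 genes (chosen with earlier results of these data known) were searched for TEC loci inside or within 10 kb, on either strand. Of 51 early NF-kB and immediate-early genes, 1 had a TEC locus, the member Gm43430 in Nfkb1, which encodes the p50 subunit and its precursor. It measured 23.3 and 41.6 TPM (4187 and 3965 counts, chr3:135650670-135654566), beside 140.1 and 165 TPM of Nfkb1. Of 25 secondary cytokine and effector genes, 0 had a TEC locus.

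Of 46 interferon-stimulated genes, 4 had a TEC locus, and 2 of these loci were members. Gm49730 (chr16:35866179-35867951) overlaps an exon of Parp14, an interferon-inducible ADP-ribosyltransferase gene, and measured 35.0 and 43.5 TPM beside 374 and 314 TPM of Parp14. Gm43068 (chr5:120746036-120747308) measured 7.14 and 9.05 TPM. It lies opposite Oas2 (115 and 107 TPM) and 5790 bases from Oas3, both genes of antiviral oligoadenylate synthetases. Of 31 genes listed for macrophage identity, 1 had a TEC locus: Ptprc, which encodes CD45, held A130071D04Rik (chr1:138161820-138167683) with 18.3 and 33.8 TPM. Of 21 genes of other cell types, 3 had a TEC locus (4 loci), and none was a member: Gm48720 in Cd3e, 4930517J16Rik and 5730488B01Rik opposite Pax5, and Gm42803 opposite Pdgfra were at 0 in both libraries. Cd3e and Pdgfra were themselves at 0 TPM in both libraries, and Pax5 was at 0.02 and 0 TPM. Over all TEC genes 32.1% were members, so these few loci do not set the lists apart, and no difference between lists was tested.

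The level of the host gene separated intronic TEC genes that were members from those that were not. Where the host had a mean below 0.1 TPM, 11 of 669 intronic TEC genes (1.64%) were members. The share was 16.8% for hosts of 0.1 to 1 TPM, 70.0% for 1 to 5, 90.8% for 5 to 20, 95.9% for 20 to 100 and 100.0% (23 of 23) from 100 TPM. Over the same steps the median member level went from 0.320 and 0.650 TPM in replicates 1 and 2, through 0.165 and 0.470, 0.470 and 1.10, 1.39 and 3.12, and 3.57 and 7.34, to 21.7 and 36.5. Host levels had a median of 7.72 and 10.2 TPM for members and of 0 TPM for the other intronic TEC genes. Host and locus were measured in the same libraries, and how far reads are shared between them was not tested.

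Of intronic members, 666 had a host with at least 10 counts in both libraries, and their TPM was a median 16.3% of the host's in replicate 1 (quartiles 8.98% and 30.6%) and 28.7% in replicate 2 (quartiles 15.6% and 50.4%). Spearman's rho between locus and host mean TPM was 0.73 over these 666 loci, which fall into 465 hosts and so are not independent. In 30 of them the locus was above its host. The highest of these were Gm29438 in St3gal5, a ganglioside synthase gene (26.2 and 34.8 TPM, host 29.1 and 24.3), Gm48225 in Gphn, Gm37558 in the importin gene Kpna4 (12.2 and 21.7 TPM, host 12.7 and 14.1) and Gm47087 in the Notch coactivator gene Maml2 (7.65 and 23.7 TPM, host 1.48 and 2.06). These loci, except Gm48225, were named after their values were seen.

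**Figure D2:**
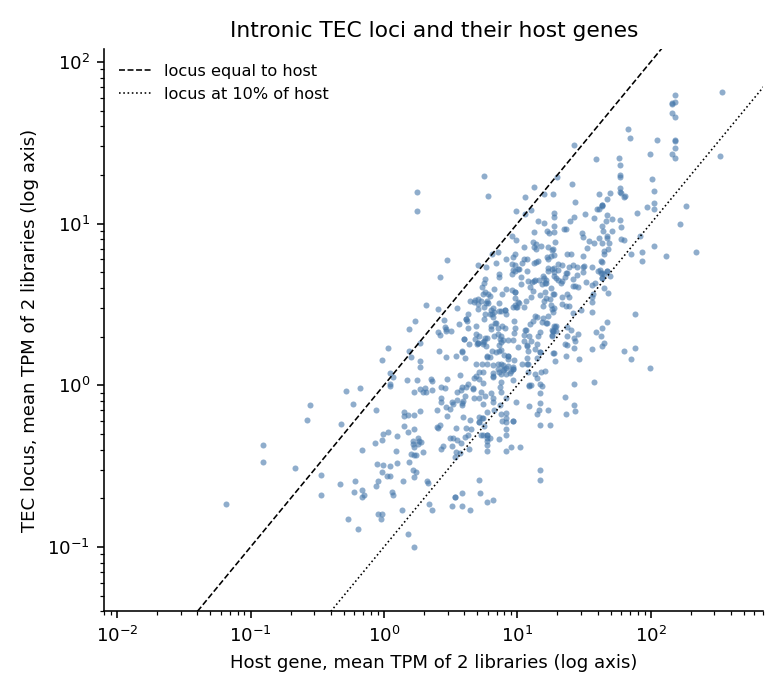
Mean TPM of 666 intronic TEC loci (y axis, log scale) against mean TPM of the gene that holds each one (x axis, log scale), over hosts with at least 10 counts in both libraries. Between the dotted line (locus at 10% of the host) and the dashed line (locus equal to host) lie 529 points, and 30 lie above the latter.

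A host below 10 counts was rare among intronic members. It was seen for 15 of 681 members, and 684 of the other intronic TEC genes had such a host. In 6 of the 15 the host was at 0 in both libraries. Gm47164, in Lrriq1, had 150 and 131 counts, and Gm37110, in Khdrbs2, had 89.5 and 131. Gm47457 (34 and 50), Gm38313 (18 and 29), A930028O11Rik (15 and 17) and B430203G13Rik (15 and 12) were lower. These 6 were named after their values were seen. Of the bases of Gm47164, Gm37110 and Gm47457, read as 31-base words, 96.9%, 100.0% and 96.2% also occur in transcripts of other genes. The shares were low in the others, at 1.94% in Gm38313, 0% in A930028O11Rik and 4.24% in B430203G13Rik.

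Outside introns the share of members also rose with the level of the partner gene. The TPM steps were wider and no minimum partner count was set, so these values are not matched to the intronic ones. Antisense TEC genes were members in 5.59% of cases with a partner below 1 TPM, 65.3% from 1 to 20 TPM and 82.1% from 20 TPM. For downstream loci these shares were 8.28%, 47.8% and 92.3%, and for head-to-head loci 9.72%, 26.7% and 41.7%. Spearman's rho of member and partner mean TPM was 0.60 over 192 antisense, 0.28 over 56 downstream and 0.11 over 24 head-to-head members, given as descriptions.

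The antisense members of highest level were near 28 TPM or below in replicate 1. Gm45244 (chr8:46471391-46473590, minus strand) measured 28.0 and 28.8 TPM opposite Acsl1, an acyl-CoA synthetase gene at 94.7 and 73.4 TPM. Gm43980 had 17 and 32 TPM opposite the splicing regulator gene Tra2a (54.7 and 64.7), and Gm43963 had 13.4 and 25.2 TPM opposite Irak2, a kinase gene of Toll-like receptor signalling (78.9 and 77.9). 2210406H18Rik, whose end is printed above, was above its partner, with 13.5 and 24.5 TPM against 4.79 and 5.01 for Mettl9, a methyltransferase gene. These were named after their values were seen. Whether counting used strand is not given in the sources used here, so reads of an antisense locus and of an overlapping partner exon cannot be told apart. Gm38071 and 9430053O09Rik overlap each other on opposite strands within Mir99ahg. RSEM gave both the same uncertainty for the split of shared reads, 5.33 and 6.76 counts in replicates 1 and 2. Reads were thus shared between strands at that place, and other places were not tested.

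The longest member, 9330162G02Rik (chr7:59223847-59254788, minus strand, 30942 bases), lies opposite Ube3a, an imprinted ubiquitin ligase gene with a known antisense transcript in neurons. It held 4321 and 5455 counts, which is 2.88 and 6.85 TPM because of its length, beside 16.1 and 30.7 TPM of Ube3a. Next in length were Gm37745 (8163 bases, 0.08 and 0.36 TPM) and Gm43379 (7726 bases, 1.04 and 1.72 TPM). The shortest were Gm47737 (308 bases, 2.15 and 11.2 TPM), Gm37008 (319 bases, 4.68 and 4.48 TPM) and Gm47122 (351 bases, 3.06 and 3.47 TPM), on 10 and 27, 24 and 12, and 20 and 12 counts.

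Outside gene bodies the levels were lower. Gm37226, after the end of Mthfsl, had 4.67 and 10.2 TPM, and Gm43460, after D5Ertd605e (0.02 and 0 TPM), had 4.70 and 5.85 TPM. Head to head with Ep300, a histone acetyltransferase gene at 25 and 28 TPM, 1110025M09Rik had 6.37 and 8.39 TPM. The highest head-to-head member was Gm37352 with 10.3 and 17.4 TPM, whose annotated partner Gm26887 was at 0 in both libraries. Among intergenic members, Gm10388 (chr6:149283838-149286773) was highest with 3.79 and 4.76 TPM. These loci were named after their values were seen.

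Members were often clustered within 1 gene. The 920 members that overlap a gene fall into 645 genes, of which 150 hold 2 or more, so that 425 members share a gene with another. Mir99ahg, the host transcript of a miR-99a and let-7c cluster (chr16:77236317-77773427, 537 kb, 33.1 and 53.2 TPM), held 12 members, 10 in its introns and 2 on the opposite strand. Camk2d, a calmodulin-dependent kinase gene, and Tcf12, a transcription factor gene, held 7 each, and Cers6 and Med13l, a Mediator subunit gene, held 6 each. Other genes also held 6; these were taken because their members had the highest summed counts.

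Along Mir99ahg the intronic loci nearest the host start were the highest. Gm37466, 146 kb from the start, had 5.09 and 20.8 TPM, and 9430092D12Rik, at 177 kb, had 6.20 and 19.5. Farther on, Gm37063 at 241 kb had 3.57 and 11.6, Gm37311 at 380.0 kb had 2.27 and 7.01, and Gm37694 at 449 kb had 0.980 and 2.54. Within Med13l the order was complete in both libraries, from Gm43788 at 42.0 kb (7.96 and 14.0 TPM) to Gm43051 at 147 kb (2.67 and 4.71). Along Camk2d, Gm43011 at 3.73 kb had 6.51 and 16.1 TPM and Gm43010 at 29.6 kb, the highest, 8.01 and 20.3. Its lowest locus, Gm43005 at 66.1 kb, had 1.73 and 3.16, and the farthest, Gm42514 at 149.8 kb, 4.14 and 6.06. Cers6 differed, with Gm37159 at 29.9 kb at 27.7 and 38.5 TPM and Gm37666 at 152 kb at 44.2 and 81.2. In Tcf12 the locus farthest from the start, Gm38057 at 257 kb, had the highest TPM of its 7 loci in replicate 1 (0.83) and the second highest in replicate 2 (1.73).

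**Figure D3:**
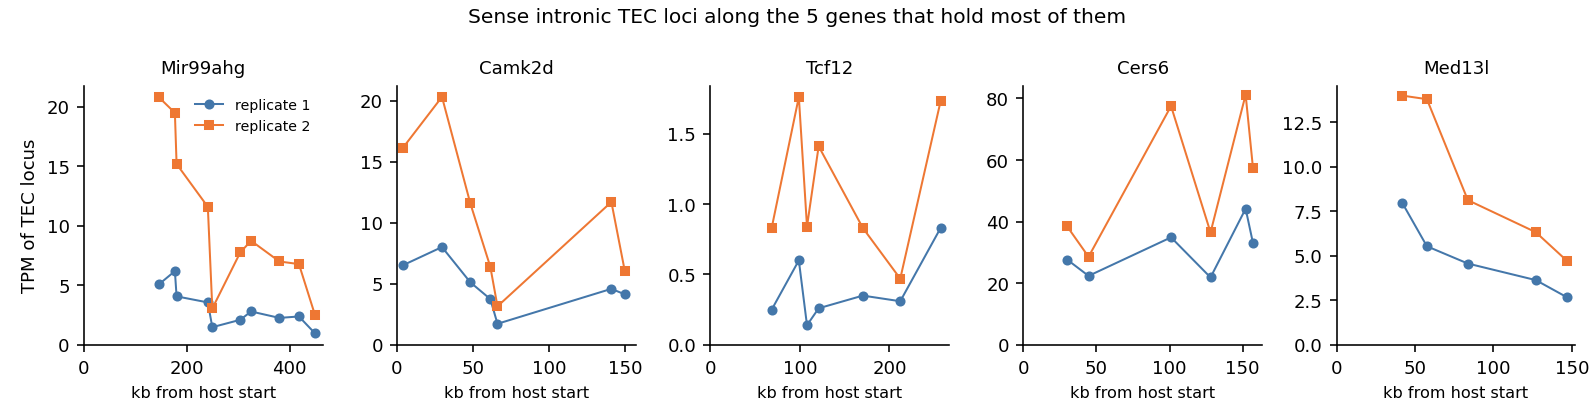
TPM of each sense intronic TEC locus (y axis, linear from 0, its own scale per panel) against its distance from the host gene start in kb (x axis), for replicate 1 (blue circles) and replicate 2 (orange squares). In Mir99ahg, Med13l and Camk2d the highest level is at the first or the next locus from the start, in Cers6 it is at 152 kb, and in Tcf12 it is at 257 kb in replicate 1 and at 98.9 kb, the next locus from its start, in replicate 2.

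Over all 111 hosts with 2 or more intronic members, the member nearest the host start was above the farthest one in 73 hosts in replicate 1 and 77 in replicate 2. Among the 666 members with a counted host, the level relative to the host was lower at greater distance. Within 10 kb of the host start, 134 members had a median of 27.8% and 36.6% of the host TPM in replicates 1 and 2. The medians were 21.7% and 33.8% at 10 to 30 kb (163 members), 14.7% and 26.2% at 30 to 100 kb (227), 9.03% and 16.6% at 100 to 300 kb (117) and 8.34% and 15.8% beyond (25). Median host levels in the first 4 ranges were alike, at 6.76 to 7.99 TPM in replicate 1, and were 13.1 TPM in the last. Distance was not used in choosing the members, but members near the minimum count are missing wherever the level is low.

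The libraries differed in how much RNA the members held. As a log2 ratio of replicate 2 over replicate 1, from counts scaled by TMM (a factor that balances the bulk of genes between libraries), the median member was at 0.66, while all 14043 genes with at least 10 counts in both libraries had a median of 0.02. The ratio was above 1, or more than 2-fold higher in replicate 2, for 293 members (28.4%), against a background of 6.48% of those 14043 genes. It was below -1 for 17 members (1.65%), against a background of 4.21%. From kallisto counts of the same loci, 126 members (12.2%) were above 1 and 16 (1.55%) below -1, against backgrounds of 2.95% and 5.53%. The exact 95% counting interval of the first ratio lay wholly above 0 for 637 members (61.8%, background 29.0%) and wholly below 0 for 44 (4.27%, background 29.9%). With 1 group of 2 libraries there is no replicate check on this ratio and no test; the intervals cover counting error only.

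The excess was not confined to members with few counts. Among 457 members with at least 100 counts in both libraries, the median ratio was 0.65 and 20.6% were above 1, compared with 2.40% of all 8705 genes at that depth. RNA input and depth also differed between these 2 libraries, and their part in the ratio was not tested. Whether fewer cells or less RNA per cell underlie a lower value cannot be told apart in bulk RNA. Scaled by library totals, the median of all genes moved to 0.19 and that of members to 0.82. On the TPM scale with a pseudocount of 0.1 they were 0.35 and 0.92. From the kallisto estimated counts of the same genes they were -0.14 and 0.41.

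Position set members apart in this ratio. Intronic members had a median of 0.74 with 226 of 681 above 1 and 2 below -1, antisense members 0.40, downstream 0.55, exon-overlapping 0.53 and intergenic 0.53. Head-to-head members had 0.10, with 2 of 24 above 1. Genes of the separate biotype sense_intronic, which also lie within introns, had a median of 0.65 (124 genes, 20.2% above 1). The antisense biotype had 0.26, lincRNAs 0.17, processed pseudogenes 0.34 and protein_coding genes -0.04. Among genes with 1 exon, the medians were 0.66 for 76 sense_intronic genes, 0.20 for 57 lincRNAs, 0.09 for 70 antisense genes and -0.11 for 227 protein_coding genes. With more than 1 exon, sense_intronic genes had 0.59 (48 genes). No difference between these classes was tested.

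**Figure D4:**
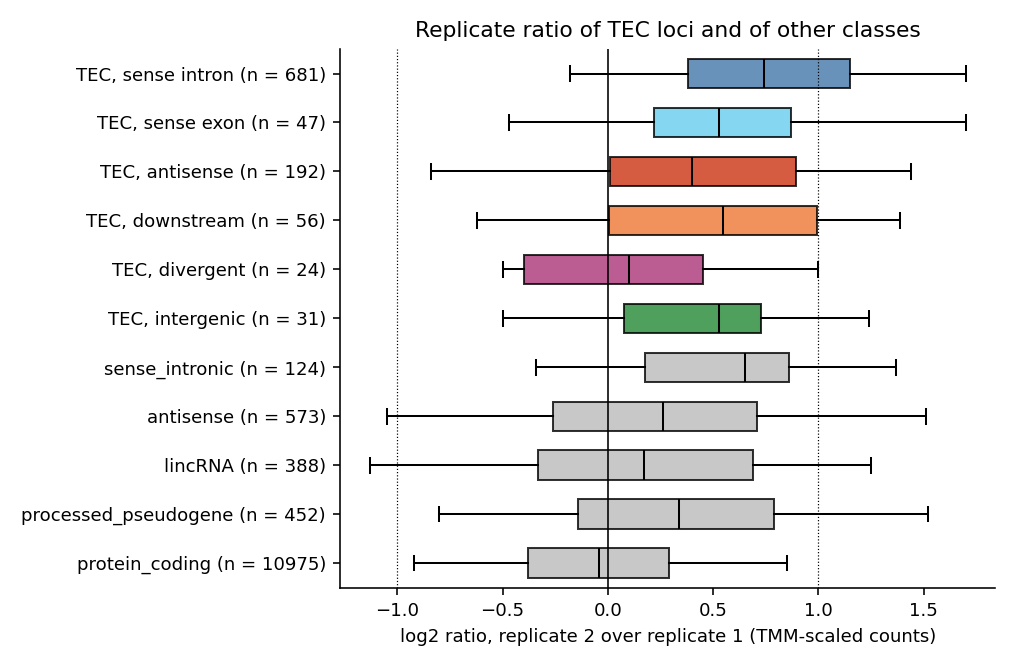
Log2 ratio of replicate 2 over replicate 1 (x axis, TMM-scaled counts) for TEC loci by position (coloured) and for other classes under the same minimum count (grey); boxes show quartiles, black bars medians and whiskers the 5th and 95th percentiles over loci. Intronic TEC loci have a median of 0.74, sense_intronic genes 0.65 and protein_coding genes -0.04.

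The hosts did not share the excess. The 666 intronic members had a median ratio of 0.74, and their 465 hosts 0.00. The locus had the higher ratio of the pair in 607 of 666 cases, with a median difference of 0.73. Member and host ratios were related (Spearman's rho 0.38, Pearson's r 0.41 over 666 loci, descriptions). Within the 111 hosts with 2 or more intronic members, ratios varied with a pooled SD of 0.45 around the mean of the members in a host. The SD was 0.58 over all intronic members, a wider set that includes those alone in a host. In Mir99ahg, 9 of the 10 intronic loci were above 1 (0.67 to 1.67, host 0.75), in Tcf12 4 of 7 were (0.26 to 2.19, host 0.35), and in Cers6 none was (-0.01 to 0.80, host -0.08).

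The largest ratios, among members with at least 50 counts in both libraries, were those of Gm37298 in Gm4258 (51 and 146 counts, 2.06) and Gm43162 in Rap1gds1 (217 and 588 counts, 1.99). Gm37139 overlaps an exon of Ehmt1, a histone methyltransferase gene, with 109 and 286 counts and a ratio of 1.94. Gm37983 in Zfp280d had 1.85, Gm49474 opposite Dip2b 1.85 and Gm37354 in the cytolinker gene Dst 1.84. Of the partner genes, Gm4258 was at 1.11, Zfp280d at 0.71, Rap1gds1 at 0.67 and Ehmt1 at 0.30, whereas Dst was at -0.60 and Dip2b at -0.48. The 95% counting interval of Gm43162 ran from 1.77 to 2.23 and that of Gm37354 from 1.60 to 2.10.

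In the other direction, 4933440N22Rik, opposite the splicing factor gene Hnrnpf, had 217 and 54.1 counts and a ratio of -1.44, while Hnrnpf was at -0.15. This locus has 2 exons, and its TPM was 3.83 and 2.71. Its ratio was -0.48 on the TPM scale with a pseudocount of 0.1 and -1.52 by kallisto counts. AC167363.2 (chr17:29093416-29094461), opposite the cell cycle inhibitor gene Cdkn1a, had 806 and 237 counts, or 20.0 and 11.1 TPM, and a ratio of -1.21 (95% interval -1.42 to -1), while Cdkn1a was at 0.06. Gm44292 in Mxd1, which encodes a MAX-binding repressor, had 551 and 182 counts and -1.04, and its host was at -1.22. Gm43890 in the folate enzyme gene Mthfd2 had -0.74, with the host at -0.64. Gm31748 and Gm37847 both had 266 and 67 counts and -1.43.

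Those last loci are one of 3 pairs of members with identical sequence on chromosome 14, where the model splits the reads evenly between copies. Gm20236 and Gm37094, each 4540 bases, were each given 2433 and 2047 counts, with a posterior SD (the uncertainty that RSEM gives for the split of shared reads) of 765 and 792 counts. Gm38378 and Gm37513 were each given 176 and 294. For these 6 loci, of which the last 4 were named after their values were seen, the sum over a pair is measured, and the value of one copy is not. Over all members, 885 had a posterior SD of 0 in both libraries, and 17 had one above 10% of the count in either library. A value of 0 does not show that a count is certain. Gm48271 and Gm48309 had 0 in both libraries, although 93.2% and 93.7% of their 31-base words also occur in transcripts of other genes.

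The second quantification, by kallisto, which matches short words of reads to transcripts, placed far more reads on some members. Of the 1031, 1030 also had at least 10 kallisto estimated counts in both libraries, but so did 2042 TEC genes in all. Over all genes, kallisto counts summed to 39148298 and 31973373 in replicates 1 and 2, above the RSEM sums of 29400127 and 17789556. Higher kallisto counts were therefore not particular to members. In members the kallisto count was a median 1.81 times the RSEM count, was lower in 4 and was more than 4-fold higher in 174. In those 174 a median 5.78% of 31-base words also occurred in transcripts of other genes, compared with 1.12% in the other members. Gm47164 had 150 and 131 RSEM counts but 71045 and 74637 kallisto counts. Gm48309, opposite Nbas, had 13 and 14 but 9990.0 and 6845. Gm48271 had 47 and 34 but 15793 and 17522. Shared words made up 96.9% of Gm47164, 93.7% of Gm48309 and 93.2% of Gm48271. They made up 53.5% of Gm47652, in Ccdc15, which had 33 and 38.8 RSEM but 5669 and 7892 kallisto counts. In Gm37144, in Mrpl15, they made up 6.07%, with 12 and 20 RSEM but 1699.5 and 3723 kallisto counts. The cause of the excess was not tested. These loci were named after their values were seen.

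The most widely shared 31-base word is printed for the 2 members with the largest kallisto excess, as an example of sequence that does not point to 1 gene. That of Gm48309 occurs in 79 other genes and that of Gm47164 in 123.
Gm48309, minus strand, chr12:13424994-13425024: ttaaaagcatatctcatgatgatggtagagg
Gm47164, minus strand, chr10:103208451-103208481: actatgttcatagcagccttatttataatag

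Polyadenylation signals differed in share between positions. AATAAA or ATTAAA was searched on the transcript strand in the last 50 bases; where both were present AATAAA was counted. It was found in 290 of 1031 members (28.1%) and 639 of the 2182 other TEC genes (29.3%), against 6.01% in the middle and 6.40% in the first 50 bases of members. In 222 of the 290 (76.6%) it lay 10 to 30 bases before the end. The share was 20.4% of intronic members (other TEC genes at the same position 21%), 23.4% of exon-overlapping (31.1%), 29.0% of intergenic (28.7%), 44.8% of antisense (38.4%), 51.8% of downstream (49.1%) and 66.7% of head-to-head members (43.8%, 16 of 24 against 46 of 105). No difference between members and other TEC genes was tested. Of all annotated transcripts, 50.2% of protein_coding, 22.4% of retained_intron, 39.5% of lincRNA, 42.4% of antisense and 28.7% of sense_intronic ones have it at the end. A match is a description of the letters and does not show that the site is used.

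**Figure D5:**
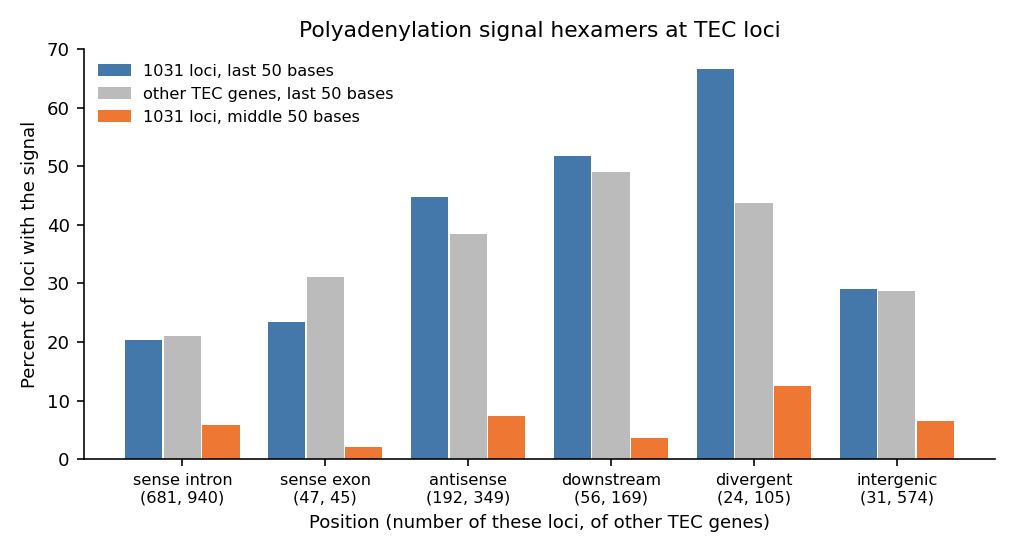
Percent of loci with AATAAA or ATTAAA (y axis) by position (x axis), for the last 50 bases of the 1031 members (blue), the last 50 bases of other TEC genes (grey) and the middle 50 bases of members (orange). The signal is at the end of 20.4% of intronic and 66.7% of head-to-head members and in 5.87% and 12.5% of their middles.

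Members with and without the signal had similar levels within introns, with medians of 1.16 and 2.45 TPM in replicates 1 and 2 for 139 with it and 1.31 and 2.88 for 542 without. Among antisense members the 86 with it had 0.635 and 1.03 TPM and the 106 without it 1.00 and 1.53. The replicate ratio was also close in introns, at 0.77 with and 0.74 without the signal. A stretch rich in A at the annotated end, with at least 12 A in the last 20 bases, was present in 104 members (10.1%) and in 8.43% of other TEC genes. The genome beyond the ends was not analysed here.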

How the data were processed

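Nuclear total RNA of 2 libraries of 1 group was analysed. Per the file headers, the authors' gene tables hold RSEM expected counts, TPM and a posterior SD of the count, and the deposited kallisto tables hold an estimated count and TPM per transcript, summed here per gene. The build is mm10 with GENCODE M21, the same release as the annotation used for positions and sequences. Sources used here do not give the aligner or the strand setting. Expected counts were rounded for ratios. TMM factors (edgeR 4.0.16, on genes averaging 10 counts or more) were 0.944 and 1.06, DESeq2 1.42.0 size factors served as an alternative, and the prior count was 0.5. The floor of 3 counts stands for 0.102 and 0.169 CPM. Intervals are Clopper-Pearson and cover counting error only.

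TPM was scaled by the authors over all features, small RNAs included. The members and gene lists were chosen with earlier results of these data known. Loci were named by a rule: the 12 highest by TPM and by count, the 6 largest ratios each way, the 3 longest and shortest, those at the minimum, the 5 hosts with most members, and those near listed genes. Others, named after their values were seen, are marked as such. Of the TEC genes of the annotation, 6 had no kallisto row and were left out, 1 of them with at least 10 counts in both libraries. The ratio and position rules were tested on simulated data. Repeat content and the genome after the 3′ ends were not analysed here.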

Additional observations from a re-analysis of the deposited data

How the results depend on the processing

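Raising the minimum from 10 to 50 counts left 623 loci (255 sharing a gene, 623 at the kallisto minimum), with a median of 3.27 TPM, a median length of 2409 bases, 72.9% in introns, the signal in 24.6%, 156 higher and 5 lower by more than 2-fold (3.62% and 3.12% of all genes there). Chosen and measured by kallisto, there were 2042 loci on 2.54% of counts, 58.0% in introns, with a median log2 ratio of 0.42. Of these, 340 were higher and 32 lower by more than 2-fold (8.61% and 4.92% of all genes there). By kallisto counts of the same loci, an alternative also chosen after seeing the data, the median ratio was 0.41, with 126 higher (2.95% of all genes). Scaled by library totals the median ratio was 0.82. As a TPM ratio it was 0.92 with 466 higher and 4 lower (pseudocount 0.1; all genes 12.8% and 1.44%), or 0.55 with 151 higher and 1 lower (pseudocount 1; all genes 3.30% and 0.712%). Rescaling TPM without small RNAs and mitochondrial genes gave a median of 6.35 TPM. Downstream windows of 5 and 50 kb gave 32 and 88 downstream loci instead of 56. The cause was not tested. The median ratio was above 0 under every scaling, prior, minimum and quantification run. A minimum of 5 counts, DESeq2 size factors and a prior of 5 moved no count by over 1.5 times. Alternatives for shared genes, host levels, lists and the signal were chosen after seeing the data. Leaving out each replicate gave 1086 to 1097 loci, 1.01% to 1.66% of counts and a median of 1.01 to 2.06 TPM. No paired analysis was possible because there is 1 group. Depth limits single loci: 10 counts stand for 0.340 and 0.562 CPM.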
